A study of Xenopus laevis with 6 samples.

Results

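The genes described are 85 cell adhesion and extracellular matrix genes of the frog Xenopus laevis, measured in labelled RNA from whole embryos around genome activation. They are the rows of a table of 50489 genes whose symbol names a cadherin, protocadherin, claudin, integrin, laminin, fibronectin, collagen, alpha or delta catenin or tight junction protein, and whose mean over the 6 libraries was at least 12. Of 248 rows with such a name, 85 met that level, 90 were above 0 but below it, and 73 were at 0 in every library. The rule took 20 protocadherins, 12 claudins, 12 collagens, 9 integrin beta rows, 8 cadherins, 8 integrin alpha rows, 6 tight junction proteins, 4 catenins, 4 laminins and 2 fibronectin genes. Selection by name also took in itgb3bp.L, which encodes a centromere protein and not an integrin subunit. It also took in cldnd1.L, named for a claudin domain, and ctnnal1.S, named as catenin-like, which are counted here with the claudins and catenins. The rows just outside the level were lamb2.L, cldn10.L and pcdh8l.L with means of 9.5, 10 and 11.3, and those just inside were itga6.S, itgb6.L and cldn6.S with 12.5, 12.8 and 13. All 85 members also passed the low-value filter of the test, which left 19149 genes.

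Each wild-type embryo received 10 nl of 50 mM 5-ethynyl uridine (EU), a nucleoside built into new RNA, as a 1-cell zygote (about 0.5 mM inside the embryo) and developed at 22 °C. Control embryos were collected at 5 hours post fertilization (hpf) and at 7.5 hpf, and further embryos spent the interval from 5 to 7.5 hpf in 0.2 mg/ml cycloheximide (CHX), which stops translation. Each group has 2 libraries, all groups carried EU, the labels give every sample as blastula, and all embryos came from 1 clutch. The p-values therefore refer to the spread of these libraries, and variation among clutches was not sampled.

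Cadherins join cells by binding each other across the gap, and inside the cell they hold actin through beta and alpha catenin while p120 (delta) catenin keeps them at the surface. Protocadherins share the cadherin repeats but not the catenin-binding tail, and in vertebrate embryos they act mainly in cell sorting and tissue boundaries. Claudins and the ZO scaffolds encoded by tjp genes seal epithelia at tight junctions, and integrins tie cells to fibronectin, laminin and collagen. The early frog embryo inherits maternal C-cadherin (cdh3), integrin and fibronectin messages, and its gastrula moves cells over a fibronectin matrix. The genome of this species holds pairs of gene copies, named L and S, left by an ancient doubling.

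Summed normalized values lay between 6680033 and 7742693 per library. A single read corresponded to about 1.85 and 2.31 units at 5 hpf and to 0.446 to 1.18 units in the later libraries (estimated from the gaps between low values), so the earliest libraries were the shallowest. At that spacing a listed 0 at 5 hpf still allows up to 5.54 and 6.93 units (3 reads, counting error only). These estimates are rough, with correlations between expected and observed gaps from 0.427 to 0.822 across the libraries. Between replicates the members differed by a median of 0.27 (log2) in the earliest libraries, 0.58 in the later controls and 0.42 with CHX, so the 7.5 hpf controls were the most spread. Over all genes these medians were 0.32, 0.44 and 0.30, so the members varied more than the table in both 7.5 hpf groups. All 23 rows of blastula genes were above 0 in at least 1 library, whereas 13 of 20 rows of genes of differentiated tissues were at 0 in every library. RNA captured at 7.5 hpf includes any labelled earlier, and unlabelled RNA carried through the capture cannot be told apart from it. In these whole-embryo samples, fewer cells of a type and less RNA per cell cannot be told apart either.

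Between 5 and 7.5 hpf in control embryos, several protocadherins rose from 0 or low values, with 1 claudin copy and 1 E-cadherin copy. Most adhesion genes already well detected at 5 hpf differed by less than 2-fold. Of the 85 genes, 13 rose and 1 fell (limma, Benjamini-Hochberg adjusted p under 0.05). That is 15.3% and 1.18% of them, against 5.9% and 0.715% of all genes tested. The risers were 11 of 20 protocadherins, cldn4.S and cdh1.S, and the gene that fell was itga5.L. Leaving out 1 library took the 13 to 4 (control 7.5 hpf replicate 1 or CHX replicate 2), 5 (CHX replicate 1) or 7 (either 5 hpf library), and the 1 to 0 in each of these fits. An unadjusted p under 0.05 was reached by 24 of the 85. The median log2 fold change was 0.11 over the members and 0.03 over all genes, and it was 0.03 and 0.01 over the genes above 0 in at least 1 library at 5 hpf. Among the risers, 8 of 13 were at 0 in both 5 hpf libraries, and no riser exceeded 30 units there. A gene at 0 at 5 hpf could pass the filter only through its later values, so its rise is partly a matter of how it was selected. The same holds for pcdh18.S, pcdh8.S, pcdh8.2.S and the pcdh7.L entry with the higher mean. Their 5 hpf means of 3, 1, 1 and 3.5 were below the level for inclusion. Among the risers only pcdh7.S, with a 5 hpf mean of 22, was above that level at 5 hpf. The 15.3% is therefore not free of this selection. Of all 658 genes tested that were at 0 at 5 hpf, 53.5% were called higher, against 8 of 11 such members.

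Of the 11 protocadherins that rose, 10 lie outside the protocadherin gene clusters. The smallest adjusted p belonged to pcdh18, a delta-2 protocadherin called as both copies. pcdh18.L was at 0 and 0 in replicates 1 and 2 at 5 hpf and at 157 and 105 in the 7.5 hpf controls (limma, adjusted p = 3.76e-05). Its partner pcdh18.S went from 6 and 0 to 163 and 47, which is 5.07 ± 0.92 (log2 fold change ± SE, limma, adjusted p = 0.00722). With a 5 hpf value of 0 such a size depends on the settings, and for pcdh18.S it ran from 3.66 to 6.47 across the alternatives run. Both copies thus stood clear of their 5 hpf values in each control library. The pcdh8 genes lie side by side, with no annotated gene between pcdh8.2 and pcdh8 on either subgenome in RefSeq Xenopus_laevis_v10.1, and pcdh8 encodes PAPC, the paraxial protocadherin of the gastrula's trunk mesoderm. pcdh8.S rose from 0 and 2 to 80 and 29 (4.83 ± 0.97, adjusted p = 0.0129). Its neighbour pcdh8.2.S rose from 0 and 2 to 140 and 93 (6.05 ± 1.41, adjusted p = 0.028), and pcdh8.2.L rose from 0 and 0 to 35 and 23 (adjusted p = 0.0222). The L copy of pcdh8 itself gave 4 and 21 at 5 hpf and 51 and 12 at 7.5 hpf, which overlap, and was not called (1.31 ± 0.92, adjusted p = 0.484). pcdh8l.S, a related gene known in frogs as PCNS for its part in neural crest and somites, gave 0 and 0 and then 11 and 3 (adjusted p = 0.31).

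The delta-1 gene pcdh7 encodes NF-protocadherin, an adhesion protein of frog ectoderm and neural folds, and it has 2 L entries and 1 S entry in the table. The L entry with the higher mean rose from 7 and 0 to 132 and 74 (5.14 ± 0.92, adjusted p = 0.00663). The other L entry rose from 0 and 0 to 88 and 21 (adjusted p = 0.027), and pcdh7.S rose from 30 and 14 to 212 and 65 (2.46 ± 0.63, adjusted p = 0.0436). The entries share a symbol, so how the authors' counting divided reads between them is not known, and the same holds for similar L and S copies. pcdh10.L, another delta-2 gene, rose from 0 and 0 to 80 and 34 (adjusted p = 0.00522), and pcdh9.S, a delta-1 gene, rose from 0 and 0 to 44 and 17 (adjusted p = 0.0361). pcdha13.L, of the clustered alpha protocadherins whose members share constant exons, rose from 0 and 0 to 31 and 36 (adjusted p = 0.0101). These 3 genes were all undetected at 5 hpf and above 0 in both later control libraries.

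The other 7 of the 9 protocadherins not called can be given by their values. pcdh10.S gave 22 and 9 at 5 hpf and 150 and 27 at 7.5 hpf, and pcdha13.S gave 43 and 39 and then 123 and 73. In both, the later libraries were the higher ones (adjusted p = 0.258 and 0.243). pcdh20.S went the other way, with 102 and 113 against 34 and 79 (adjusted p = 0.285), and its partner pcdh20.L gave 0 and 0 and then 0 and 5. The gamma-type gene pcdhga3.S gave 17 and 62 and then 64 and 9, and its groups overlapped. Both copies of pcdh1, a delta-1 gene, were well detected already at 5 hpf. pcdh1.L gave 1215 and 1529 at 5 hpf against 1319 and 1574 at 7.5 hpf (0.08 ± 0.16), and pcdh1.S gave 1577 and 1689 against 1499 and 1654 (-0.05 ± 0.14). The 95% intervals of these differences, -0.27 to 0.43 and -0.36 to 0.26, lie inside a 2-fold change.

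**Figure D1:**
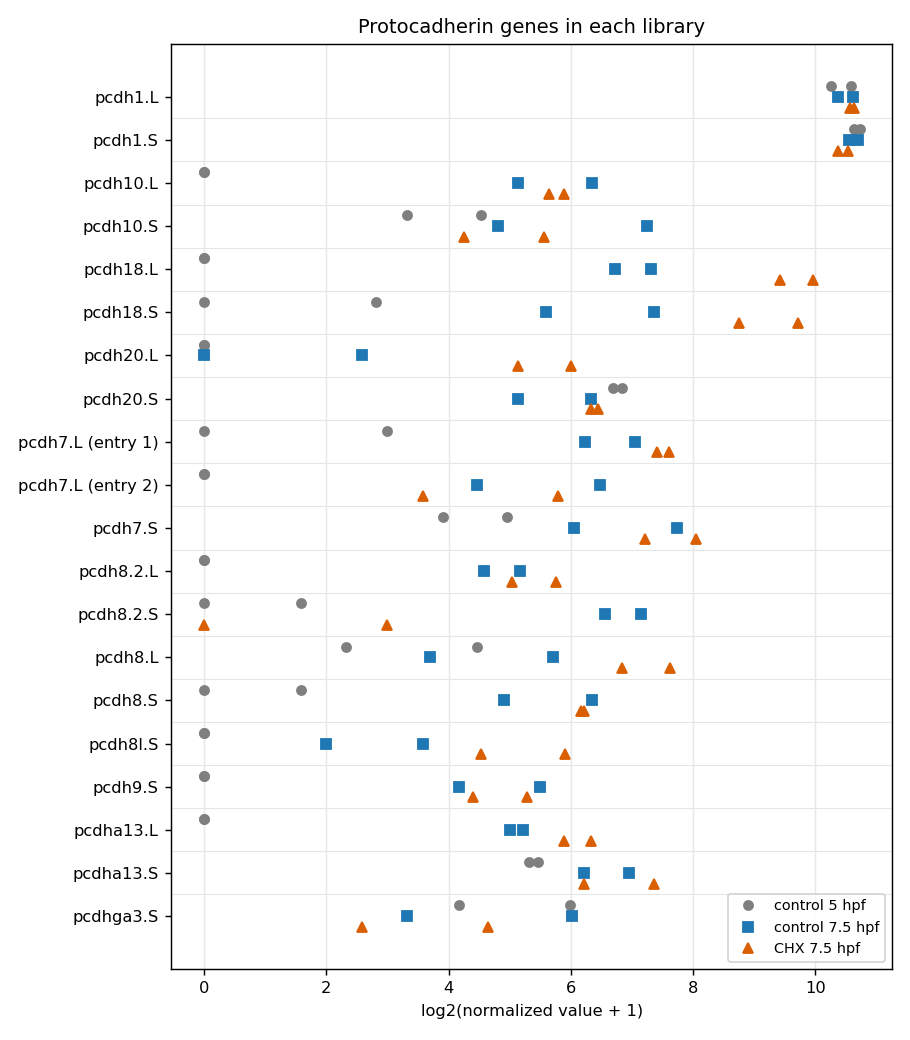
Each row is 1 of the 20 protocadherin entries and each point 1 library, on the log2(normalized value + 1) scale, with grey circles for control 5 hpf, blue squares for control 7.5 hpf and orange triangles for CHX at 7.5 hpf. Grey points sit at 0 for 8 genes in both libraries, pcdh1.L and pcdh1.S overlap at the right in all groups, and both pcdh18 copies have their orange points to the right of the blue ones.

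Added over the 11 protocadherins that rose, the normalized values were 43 and 18 at 5 hpf and 1162 and 544 in the 7.5 hpf controls. Replicate 1 of the 7.5 hpf controls was above replicate 2 for 10 of these 11 genes, with medians of 88 and 36 units. That order was not particular to them. Among the 23 rows of blastula genes, only pou5f3.3.L, pou5f3.3.S, h1-8.L and h1-8.S had the reverse order, and pou5f3.2.L gave 14675 and 7177.  The count of 11 depended on which libraries were in the fit. Omitting control 7.5 hpf replicate 1 left 3 calls, omitting its replicate 2 left 10, either 5 hpf library 6, CHX replicate 1 left 4 and CHX replicate 2 left 3. CHX libraries enter this comparison only through the shared estimate of spread. The calls of pcdh18.L, pcdh10.L and cldn4.S held whichever 1 library was left out, and pcdha13.L was lost only without CHX replicate 2 (adjusted p = 0.0504). pcdh18.S, pcdh8.S and the pcdh7.L entry with the higher mean were lost when control 7.5 hpf replicate 1 or a CHX library was omitted (adjusted p from 0.0793 to 0.145). pcdh7.S, pcdh8.2.L, pcdh9.S and the other pcdh7.L entry, with cdh1.S and itga5.L, were lost without any 1 library except control 7.5 hpf replicate 2 (0.0556 to 0.314), and pcdh8.2.S without any 1 control library (0.0531 to 0.149). Several protocadherins are known from neural tissue, and the marker list holds 5 neuronal rows. snap25.L and snap25.S were at 0 in all 6 libraries. elavl3.L gave 0 and 0, then 48 and 15, then 140 and 190 under CHX, and tubb2b.L gave 0 and 0, 16 and 0, then 140 and 121. tubb2b.S gave 0 and 0, 14 and 0, then 22 and 29, so both tubb2b rows were at 0 in control 7.5 hpf replicate 2. The summed list of 20 differentiated-tissue rows, 13 of them at 0 throughout, ran from 0 to 345 units per library, and its part in the protocadherin values was not tested.

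Among the tight junction genes, 1 of 12 claudins rose and 0 of 6 tjp genes passed the test. cldn4.S, a copy of an epithelial barrier claudin, went from 0 and 0 to 309 and 95 (limma, adjusted p = 0.000271). cldn4.L was already at 218 and 220 and gave 765 and 265, a log2 fold change of 1.04 ± 0.41 that was not called (adjusted p = 0.196). It was called without control 7.5 hpf replicate 2, at 1.80 with an adjusted p of 0.0165. The other claudins ran from -0.2 to 2.52 in log2 fold change without a call. cldn6.S, at the top of that range, gave 4 and 0 and then 40 and 3. tjp3.S, encoding a ZO-3 scaffold, gave 300 and 280 and then 442 and 415 (0.56 ± 0.2, adjusted p = 0.139), and the ZO-1 copies tjp1.L and tjp1.S had log2 fold changes of 0.05 ± 0.18 and 0.03 ± 0.17.

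Of the 8 cadherins, cdh1.S was the one called. cdh1.S, encoding E-cadherin of the ectodermal epithelium, rose from 0 and 0 to 20 and 21 (adjusted p = 0.0287). cdh1.L was at 22 and 28 at 5 hpf and 31 and 6 at 7.5 hpf and was not called (adjusted p = 0.711). cdh2.S, encoding N-cadherin of neural tissue, gave 0 and 0 and then 24 and 6 (adjusted p = 0.146), and was called without control 7.5 hpf replicate 2 (0.0378). cdh3, which encodes C-cadherin, the main cadherin between blastomeres, lies next to cdh1 on both subgenomes with no annotated gene between. cdh3.L gave 1399 and 1257 against 1282 and 1601 (0.11 ± 0.15), and cdh3.S gave 1062 and 901 against 994 and 976 (0.01 ± 0.15). Their 95% intervals, -0.23 to 0.45 and -0.32 to 0.34, leave room for less than a 1.5-fold change in either direction.

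The single gene that fell encodes a subunit of the fibronectin receptor, the integrin made of itga5 and itgb1. itga5.L went from 642 and 582 to 354 and 382, a log2 fold change of -0.73 ± 0.18 (limma, adjusted p = 0.0345). Its partner itga5.S went from 709 and 682 to 552 and 468 (-0.45 ± 0.17, adjusted p = 0.174). For both copies the later libraries were below the earlier ones, and only the L copy passed the test, although the difference between the copies was not called (-0.28 ± 0.24, adjusted p = 0.706). Neither copy of the beta subunit gene was called. The later libraries lay below the earlier ones for itgb1.L and above them for itgb1.S. itgb1.L gave 1212 and 1192 and then 1188 and 1083 (-0.08 ± 0.15), and itgb1.S gave 546 and 545 and then 724 and 646 (0.33 ± 0.17, adjusted p = 0.334). The ligand showed no call either, with fn1.S at 2637 and 2527 and then 1982 and 3010 (-0.08 ± 0.18), and fn1.L at 187 and 286 and then 229 and 355 (0.30 ± 0.29). The other integrin subunits, among them itgav.L and itgb5 of a vitronectin-binding receptor, ran from -2.45 to 3.75 with 0 calls. The highest, itga2b.2.L, gave 2 and 0 and then 20 and 25 (adjusted p = 0.096), and the lowest, itgb6.L, gave 11 and 14 and then 0 and 5.

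None of the 4 catenins, 4 laminins and 12 collagens was called from 5 to 7.5 hpf. ctnna1.S, an alpha catenin that links cadherins to actin, gave 1535 and 1448 and then 2071 and 2170 (0.51 ± 0.13), just short of the threshold at an adjusted p of 0.0507. It was called with a pseudocount of 5 (0.0441) and with a filter at a mean of 50 (0.0431). ctnna1.L gave 733 and 698 and then 645 and 789 (0 ± 0.16), and the p120 catenin gene ctnnd1.L gave 409 and 300 and then 420 and 283. The laminin gamma 1 chain, part of most laminins, gave 709 and 732 and then 945 and 837 for lamc1.L and 598 and 598 and then 428 and 532 for lamc1.S. In lamc1 the copies differed in sign, but their difference was not called (adjusted p = 0.562). Collagen changes ran from -1.18 to 3.2 around a median of -0.19. col5a2.S, a fibrillar collagen chain, gave the lowest at 81 and 95 and then 26 and 56. col17a1.S, of the hemidesmosome, gave the highest at 0 and 7 and then 41 and 15. Of 69 rows with a collagen name, 19 were at 0 in all libraries and 38 more were below the level for inclusion.

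Of the members, 41 had a mean of at least 100 units at 5 hpf. Their log2 fold changes to 7.5 hpf ran from -1.11 to 1.04 with a median of 0.01, and 92.7% of them lay within a 2-fold change, against 95.4% of all 10852 genes at that level. For 30 of the 41 (73.2%) the whole 95% interval lay within 2-fold, against 66.3% of all such genes. Added together they gave 24082 and 23766 in the earliest libraries, 23930 and 26017 in the later controls and 24294 and 24175 with CHX. Scaling on library totals moved the median of all genes from 0.03 to -0.11 and that of the 85 members from 0.11 to -0.03, so the sign of that small median rests on the scaling.

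**Figure D2:**
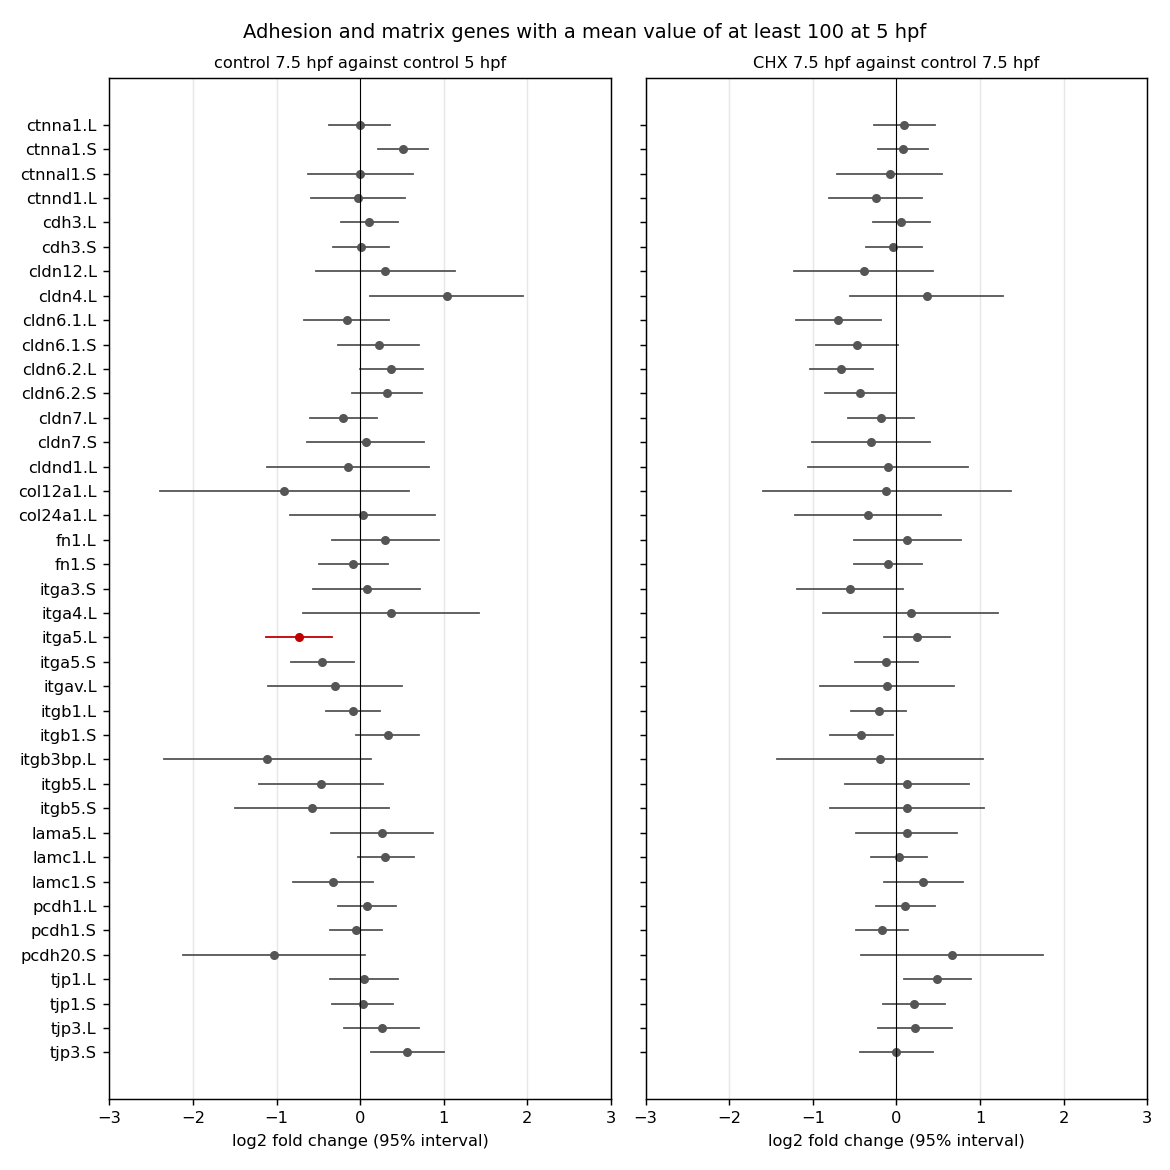
Points are log2 fold changes and bars their 95% intervals (limma) for 39 of the 41 members with a mean of at least 100 units at 5 hpf, with control 7.5 hpf against control 5 hpf on the left and CHX against control at 7.5 hpf on the right. Only itga5.L, in red on the left, was called, and on the right every point lies between -0.7 and 0.66.

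With translation blocked from 5 hpf, 0 of the 85 genes differed from the 7.5 hpf controls after adjustment in either direction (limma), against 0.198% of all genes called higher and 0.355% called lower. Before adjustment 12 had a p under 0.05, 7 higher and 5 lower under CHX. Both CHX libraries lay above both controls for 17 genes (20% of the members against 19.6% of all genes) and below both for 11 (12.9% against 18.1%). These shares are near the background or below it. The median log2 difference was 0.09 over the members and 0.02 over all genes. The test had 2 libraries a group, so a missed call leaves room for real differences of the size of the intervals given below.

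The smallest p among the members belonged to pcdh18. pcdh18.L stood at 157 and 105 in the controls and at 997 and 683 under CHX, a log2 difference of 2.67 ± 0.57 with a 95% interval of 1.41 to 3.94 (limma, adjusted p = 0.097). pcdh18.S stood at 163 and 47 against 837 and 429 (2.76 ± 0.92, adjusted p = 0.417). In both copies each CHX library was above each control library. The L copy was called with a pseudocount of 5 (adjusted p = 0.00823), in a fit of only these groups (0.016) and without either 5 hpf library (0.0413 and 0.0394), and was not called under the other alternatives, among them leaving out a CHX library (0.994 and 0.881).

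Opposite in direction was pcdh8.2.S, at 140 and 93 in the controls and 0 and 7 under CHX (-5.35 ± 1.41, adjusted p = 0.225). It was called lower only with a pseudocount of 5 (-3.94, adjusted p = 0.0316). Its neighbour pcdh8.S gave 80 and 29 against 71 and 73, and its L copy pcdh8.2.L gave 35 and 23 against 53 and 32. pcdh8.L gave 51 and 12 against 195 and 113 (2.52 ± 0.92, adjusted p = 0.48). Of the L and S copies of pcdh8 and pcdh8.2, pcdh8.2.S was thus near 0 under CHX while the other 3 were as high as in controls or higher in value. None of them was called. pcdh20.L, at 0 and 5 in the controls, gave 34 and 63 under CHX (adjusted p = 0.485). Of the other protocadherins that rose in controls, pcdh10.L gave 80 and 34 against 49 and 58, and pcdh9.S gave 44 and 17 against 38 and 20. In both genes the groups overlapped. pcdha13.L gave 31 and 36 against 79 and 58 (1.0 ± 0.98, adjusted p = 0.815). The pcdh7.L entry with the higher mean gave 132 and 74 against 193 and 169 (0.86 ± 0.92, adjusted p = 0.832). Both CHX libraries were above both controls in these 2 genes. The other pcdh7.L entry gave 88 and 21 against 54 and 11, and pcdh7.S gave 212 and 65 against 264 and 147, with overlap in each.

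Over the 12 claudins the median log2 difference under CHX was -0.35, against 0.02 over all genes. Both CHX libraries were below both controls for 5 of 12 and above both for 0, against 18.1% and 19.6% of all genes. Of the 5, 4 were the L and S copies of cldn6.1 and cldn6.2, and the other was cldn7.L. Reads of similar copies may be shared, so the 5 are not separate observations. cldn6.1 and cldn6.2 are adjoining early claudin genes, and cldn6.2 encodes claudin A. cldn6.2.L gave 644 and 736 against 421 and 451, a log2 difference of -0.66 ± 0.17 with a 95% interval of -1.04 to -0.28 (limma, adjusted p = 0.221). cldn6.1.L gave 336 and 372 against 216 and 220 (-0.70 ± 0.23, 95% interval -1.2 to -0.19, adjusted p = 0.404). The S copies gave 677 and 909 against 605 and 550 for cldn6.2.S and 570 and 575 against 503 and 341 for cldn6.1.S. All 4 neighbours were thus lower in each CHX library, and none was called. cldn4.S did not follow them, at 309 and 95 against 168 and 102, whose values overlap.

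Over the 8 cadherins the median was 0.51, against 0.02 over all genes. Both CHX libraries were higher for 4 of them and lower for 0, against 19.6% and 18.1% of all genes, and 0 were called. The 4 were cdh1.S, cdh6.S, cdh23.L and cdh26.S, with means over all libraries of 28 to 38.5. The shift was not particular to cadherins. The 20 protocadherins had a median of 0.54, with both CHX libraries higher for 7 and lower for 2. Members above 0 with a 5 hpf mean under 100 had a median of 0.51, against 0.01 over all such genes. That set includes some of the same cadherins and protocadherins, so it is not a separate comparison. cdh26.S gave 22 and 21 against 105 and 76 (2.01 ± 0.84, adjusted p = 0.568), and cdh1.S gave 20 and 21 against 126 and 60 (2.03 ± 1.03, adjusted p = 0.648). The C-cadherin copies cdh3.L and cdh3.S gave 1562 and 1428 and 997 and 924 under CHX, with differences of 0.06 ± 0.15 and -0.04 ± 0.15 from control. Of the scaffold genes, tjp1.L (ZO-1) gave 741 and 1049 against 1318 and 1164 (0.49 ± 0.18, limma, adjusted p = 0.486). itgb1.S gave 724 and 646 against 474 and 549 (-0.42 ± 0.17, adjusted p = 0.543), and itga5.L, which had fallen in controls, gave 354 and 382 against 427 and 445 (0.24 ± 0.18, adjusted p = 0.745). fn1.S stood at 2153 and 2413 under CHX (-0.10 ± 0.18). Among the 41 members with at least 100 units at 5 hpf, the difference from control ran from -0.7 to 0.66, and for 28 the whole 95% interval lay within 2-fold (72.3% of all such genes and 68.3% of the members).

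Set against the 5 hpf controls, embryos in CHX had 14 of the 85 genes called higher (16.5%, against 5.75% of all genes) and 0 called lower (against 0.256%). At an unadjusted p under 0.05 there were 28. The median log2 fold change was 0.24 over the members and 0.02 over all genes, and -0.05 and 0.01 over the genes above 0 in at least 1 library at 5 hpf. This comparison uses the same 5 hpf libraries as the one in controls, so the lists are not independent of each other. The 14 were 10 of 20 protocadherins, cdh1.S, cdh26.S, cldn4.S and ctnna1.S. Of these, 7 were at 0 in both 5 hpf libraries, so they passed the filter only through their later values. The same limit applies to pcdh18.S, pcdh8.S, cdh26.S and the pcdh7.L entry with the higher mean. Their 5 hpf means of 3, 1, 3.5 and 3.5 were below the level for inclusion. Only pcdh8.L, pcdh7.S and ctnna1.S, with 5 hpf means of 12.5, 22 and 1492, were above it at 5 hpf. The 16.5% is therefore not free of this selection. Of all 658 genes tested that were at 0 at 5 hpf, 56.8% were called higher under CHX, against 7 of 11 such members.

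pcdh18.L was again the clearest, from 0 and 0 to 997 and 683 (limma, adjusted p = 7.5e-06), and pcdh18.S went from 6 and 0 to 837 and 429 (7.83 ± 0.92, adjusted p = 0.000429). The pcdh7.L entry with the higher mean reached 193 and 169 (6.0 ± 0.92, adjusted p = 0.00243) and pcdh7.S reached 264 and 147 (3.2 ± 0.63, adjusted p = 0.0114). pcdh8.L, not called in controls, rose from 4 and 21 to 195 and 113 (3.83 ± 0.92, adjusted p = 0.0345), and pcdh8.S rose to 71 and 73 (5.40 ± 0.97, adjusted p = 0.00682). Transcripts of both PAPC copies were thus above their 5 hpf values in embryos kept in CHX. The remaining calls were pcdha13.L (adjusted p = 0.00331), pcdh10.L (0.00496), pcdh8.2.L (0.013) and pcdh9.S (0.0375). pcdh8.2.S, at 0 and 7, was not called (adjusted p = 0.882), and the other pcdh7.L entry, at 54 and 11, had an adjusted p of 0.0591.

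cdh1.S rose from 0 and 0 to 126 and 60 (adjusted p = 0.00319), and cdh26.S, an atypical cadherin, rose from 2 and 5 to 105 and 76 (4.41 ± 0.84, adjusted p = 0.00981). cldn4.S rose from 0 and 0 to 168 and 102 (adjusted p = 0.000366). ctnna1.S rose from 1535 and 1448 to 2400 and 2088 (0.59 ± 0.13, adjusted p = 0.0272) and was the only call among the 41 members with at least 100 units at 5 hpf. Scaling on library totals ended that call (adjusted p = 0.0803). cldn4.L gave 218 and 220 and then 733 and 455 (1.39 ± 0.41, adjusted p = 0.0852), and cldn6.1.L gave 467 and 336 and then 216 and 220 (-0.86 ± 0.23, adjusted p = 0.0553). The count of 14 was 1 without CHX replicate 1, 2 without CHX replicate 2, 11 without either 5 hpf library and 19 without either 7.5 hpf control. The same omissions of CHX replicate 1 and replicate 2 took all genes called higher from 1101 to 78 and 298. pcdh18.L was called in each of these fits, cldn4.S was lost only without CHX replicate 1 (adjusted p = 0.0795), and each of the others was lost without either CHX library (0.0545 to 0.518). pcdh8.L was also lost without 5 hpf replicate 1 (0.203), pcdh7.S without 5 hpf replicate 2 (0.0829), and pcdh9.S and ctnna1.S without either of them.

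The L and S copies could be compared within each library for 25 member genes out of 4747 pairs in the table. From 5 to 7.5 hpf in controls the ratio of the copies changed for 1 of the 25 (0.59% of all pairs were called), and 7 had an unadjusted p under 0.05. That gene was cldn4, whose L copy was at 218 and 220 when the S copy was at 0, and whose S copy then appeared (limma on the log2 ratio, adjusted p = 0.0231). The size of a ratio with a copy at 0 depends on the pseudocount, so no fold is given. cdh1 had the same arrangement, with cdh1.L at 22 and 28 and cdh1.S at 0 and 0 at 5 hpf, and 31 and 6 against 20 and 21 at 7.5 hpf (adjusted p = 0.127). In pcdha13 and pcdh10 the S copy was the one present at 5 hpf and the L copy appeared (adjusted p = 0.0643 and 0.168). By listed values the copy at 0 at 5 hpf was thus S in cldn4 and cdh1 and L in pcdha13 and pcdh10. It was also L in pcdh20, whose S copy was at 102 and 113. The L copies of pcdh18 and pcdh8.2 were at 0 too, with S copies at 6 and 0 and at 0 and 2. Only cldn4 was called, and a 0 in those shallow libraries does not show absence. A pair entered only if both copies passed the filter. A copy at 0 at 5 hpf could pass only through its later values, so the change in such a ratio is partly a matter of selection. The share of all pairs called is not limited to pairs with such a copy.

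Under CHX against 5 hpf, 2 of the 25 pairs were called (0.506% of all pairs) and 9 had an unadjusted p under 0.05. They were cldn4 (adjusted p = 0.0274) and pcdha13 (0.0421). Each has a copy at 0 at 5 hpf that entered only through its later values, so the same limit applies. pcdha13.L went from 0 and 0 to 79 and 58 while pcdha13.S went from 43 and 39 to 164 and 73. Between CHX and control at 7.5 hpf, 0 of the 25 and 0% of all 4747 pairs were called, with 4 members at an unadjusted p under 0.05. Among them was pcdh8.2, where the S copy was near 0 under CHX and the L copy was not (limma on the log2 ratio, adjusted p = 0.693). Over the 25 pairs the median size of the ratio change was 0.38 in controls, 0.27 between CHX and control and 0.61 between CHX and 5 hpf, against 0.39, 0.33 and 0.31 over all pairs. The cldn4 call in controls was lost on omitting 5 hpf replicate 2, control 7.5 hpf replicate 1, CHX replicate 1 or CHX replicate 2 (adjusted p from 0.0833 to 0.158). Under CHX the pcdha13 call was lost without any 1 library, and the cldn4 call without any 1 except 5 hpf replicate 1 (0.0557 to 0.394).

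**Figure D3:**
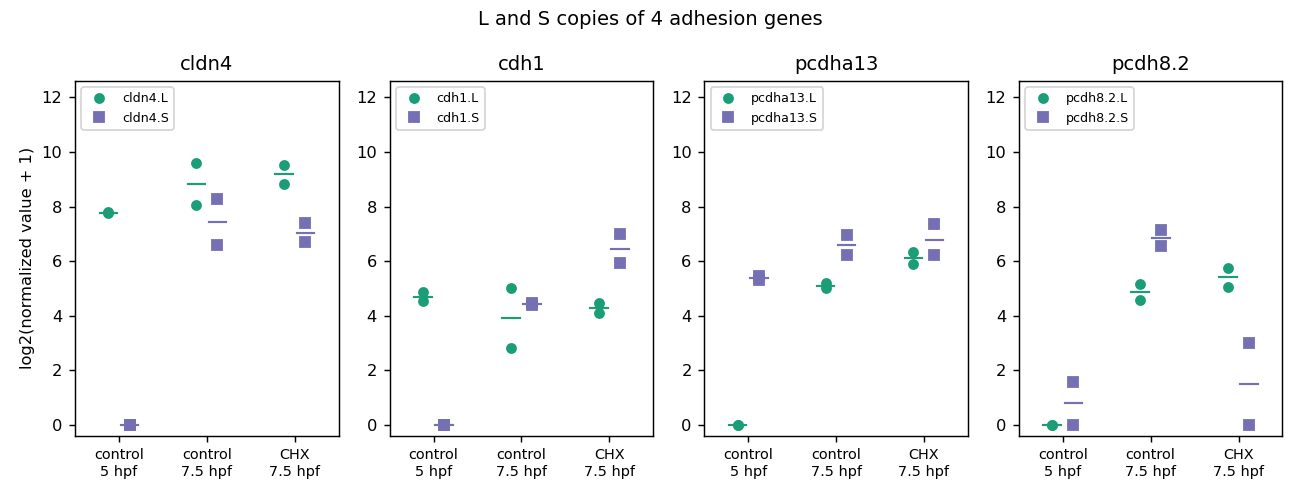
Each panel shows the L copy (green circles) and S copy (purple squares) of 1 gene in every library on the log2(normalized value + 1) scale, with a short line at the mean of each group. The cldn4.S, cdh1.S and pcdha13.L copies start at 0 while their partners are already present, and pcdh8.2.S is near 0 at 5 hpf and under CHX.

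Genes that work with these families were read from lists of known partners, chosen by function, and their counts of called genes are read against 5.9% of all genes higher and 0.715% lower in controls. Of 30 tested partners of cadherins and desmosome genes, 0 were called from 5 to 7.5 hpf (median log2 fold change 0.18, all genes 0.03). Of 41 tight junction partners and polarity genes 1 rose, and of 33 basement membrane and matrix proteins 0 were called (medians -0.03 and 0.11, the latter 0.10 over genes above 0 at 5 hpf). The riser was f11r.S, encoding the junctional adhesion molecule JAM-A, from 643 and 675 to 1500 and 1917 (1.36 ± 0.16, adjusted p = 0.000533), a call kept whichever library was left out. Of 42 genes linked to integrin adhesion, nedd9.L and nedd9.S rose and zyx.S fell. nedd9.S, a Cas-family scaffold of focal adhesions, went from 0 and 14 to 490 and 141 (6.09 ± 1.03, adjusted p = 0.00482), and zyx.S, encoding zyxin, from 1965 and 1815 to 1171 and 1248 (-0.64 ± 0.13, adjusted p = 0.0151). The nedd9.S call was lost on omitting control 7.5 hpf replicate 1 or a CHX library (adjusted p up to 0.14). The zyx.S call was lost on omitting any 1 library but control 7.5 hpf replicate 2 (up to 0.136), and the nedd9.L call on omitting any 1 but 5 hpf replicate 2 (up to 0.279).

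Of 48 other cell surface adhesion genes 10 rose in controls (20.8%, against 5.9% of all genes). The median was 0.20 over the list and -0.02 over those above 0 at 5 hpf. Of these 48 genes, 7 were at 0 in both 5 hpf libraries and passed the filter only through their later values. Over all genes tested that was 658 of 19149. flrt3, a membrane protein that in frog embryos lowers C-cadherin adhesion through Rnd1, was among the 10 risers as both copies. flrt3.L went from 0 and 0 to 386 and 309 (limma, adjusted p = 6.02e-05), and stood at 129 and 53 under CHX, below both controls but not called against them (-2.05 ± 0.73, adjusted p = 0.469). rnd1.L rose with it, from 13 and 2 to 183 and 90 (4.32 ± 0.76, adjusted p = 0.0063), a call that needed control 7.5 hpf replicate 1 and both CHX libraries (up to 0.123). l1cam.S, a neural cell adhesion molecule, rose from 1668 and 1164 to 3140 and 3074 (1.16 ± 0.19, adjusted p = 0.00389; 0.0772 without control 7.5 hpf replicate 1). Under CHX l1cam.S stood at 6550 and 4900, not called against control (0.87 ± 0.19, adjusted p = 0.111). efnb2.L, efnb2.S, epha4.L and 1 of 3 ephb4.L entries, ligands and receptors of the ephrin system that keeps tissues apart, also rose, as did alcam.L and celsr1.L. The ephb4.L and celsr1.L calls were each lost in 5 of the 6 fits that omitted a library (up to 0.135 and 0.283). The count of 10 became 6 without control 7.5 hpf replicate 1. Of 45 matrix enzymes and collagen maturation genes 6 rose (13.3%, against 5.9% of all genes; median 0.04, or 0 over genes above 0 at 5 hpf), and all 6 calls held whichever library was omitted. They were adamts1.L, adamts1.S, has1.S, has2.L, has2.S and timp3.L, which encode a matrix protease, hyaluronan synthases and a protease inhibitor. The timp3.L given here is the entry with the highest mean of those tested under that symbol, and no other was called. adamts1.L went from 35 and 25 to 1900 and 797 (5.33 ± 0.37, adjusted p = 1.79e-05), and timp3.L from 107 and 163 to 1429 and 552 (2.74 ± 0.38, adjusted p = 0.00142).

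Between CHX and control at 7.5 hpf, only dsp.S was called on these 6 partner lists. dsp.S encodes desmoplakin, which anchors desmosomes to keratin, and gave 747 and 1018 against 1827 and 1647 (0.99 ± 0.17, adjusted p = 0.0346). That call was lost without any 1 library except control 7.5 hpf replicate 2 (0.0748 to 0.834). Against 5 hpf, CHX embryos had 13 of 48 surface adhesion genes higher (27.1%), 6 of 45 matrix enzymes, 2 of 30 cadherin and desmosome partners, 2 of 42 integrin-linked genes, 1 of 33 matrix proteins and 1 of 41 tight junction partners. The 48 include the 7 genes at 0 at 5 hpf that passed the filter only through their later values. Of all genes 5.75% were called higher under CHX against 5 hpf. The counts of 2 of 42, 1 of 33 and 1 of 41 lie below that share and 2 of 30 near it. Without CHX replicate 1 these counts were 0, 2, 0, 0, 0 and 0, and without CHX replicate 2 they were 5, 4, 0, 0, 0 and 0. f11r.L was the single gene lower, from 890 and 701 to 491 and 460 (-0.73 ± 0.19, adjusted p = 0.0487), a call lost without any 1 of the 5 hpf or CHX libraries (up to 0.361). The matrix protein was vcan.L, encoding versican, from 4 and 0 to 222 and 149 (6.35 ± 0.96, adjusted p = 0.00232; up to 0.162 without a CHX library).

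**Figure D4:**
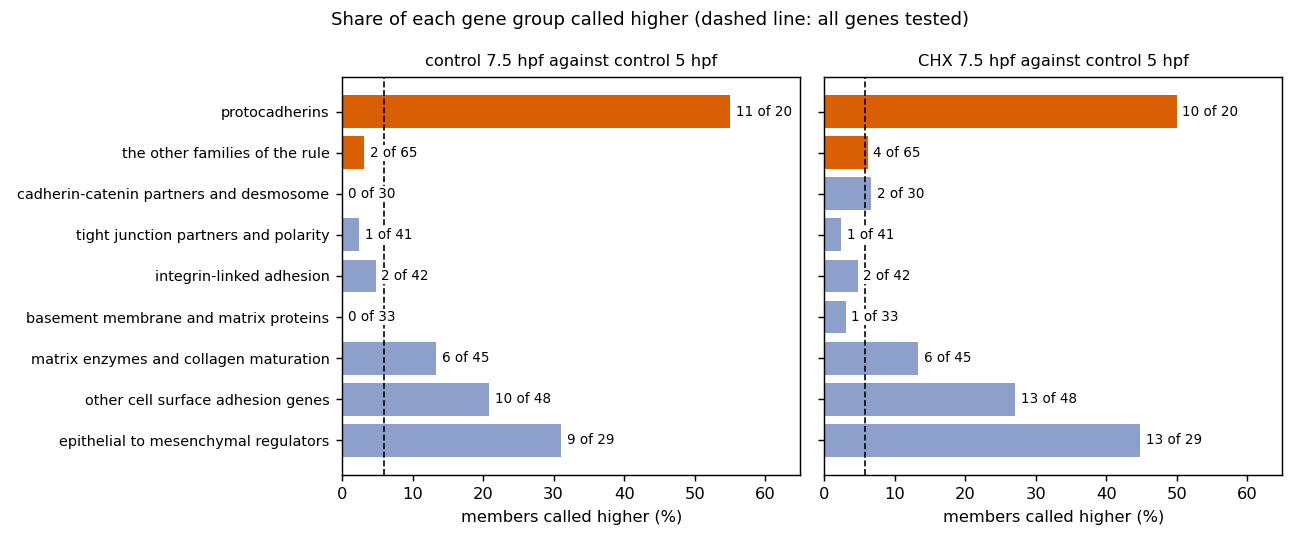
Bars give the percent of each gene group called higher (limma, adjusted p under 0.05) in controls from 5 to 7.5 hpf (left) and under CHX against 5 hpf (right), with the counts beside them and the share of all genes tested as a dashed line. In controls, protocadherins reach 11 of 20 and the other families of the rule 2 of 65. Cadherin and desmosome partners reach 0 of 30, tight junction partners 1 of 41 and integrin-linked genes 2 of 42. Other surface adhesion genes reach 10 of 48, matrix enzymes 6 of 45 and epithelial to mesenchymal regulators 9 of 29. Genes at 0 in both 5 hpf libraries entered only through later values. Those at 0 were 8 protocadherins, 7 other surface adhesion genes, 2 matrix enzymes and 5 epithelial to mesenchymal regulators, with others in groups not listed here. Genes above 0 whose 5 hpf mean was below the level for entry also needed higher later values.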

How the data were processed

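EU-labelled RNA was coupled to biotin, captured on streptavidin and sequenced after removal of ribosomal RNA, per the labels' protocols. Per the submitters' processing notes, Salmon 0.12.0 and DESeq2 were used by the authors. The deposited numbers were handled as a score, namely normalized gene values which the authors had rounded to whole numbers. The annotation, strand setting and build were not given in the sources used here. Reads of near-identical copies or of overlapping genes may be split or shared. Rounding was too coarse to recover whole reads, so no count model was used.

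On the log2(value + 1) scale all 6 libraries entered 1 fit in limma 3.58.1 (R 4.3.3). The fit used 3 group means, an intensity trend, and 3 residual and 7.35 prior degrees of freedom. Adding 1 shrinks changes between low detected values. For genes undetected at 5 hpf the size depends on the settings and may be understated or overstated. For pcdh18.L in controls it ran from 4.74 to 8.01 across the alternatives run. Genes entered with a mean of at least 11.9 (10 reads at a mean spacing of 1.19), and p-values were two-sided and adjusted over all 19149 genes. L and S copies were tested as log2 ratios over 4747 pairs. The test was also run on simulated data, but the outcome is not given here and is not used to back any call. Counts and figures used Python 3.11.15. RefSeq symbols matched 76 of the 85 members. Promoter and protein sequences were not analysed here.

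Members, lists and tests were chosen with earlier results of these data known. Members named are those called, the 2 of each family with the highest mean, the 3 largest changes without overlap in each comparison and direction, partners of called copies, and at most 4 called genes per list and comparison, with others added after their values were seen. Alternatives varied the pseudocount, filter, scaling, groups in the fit, library weights, replicate block and libraries. Values of 1 gene are not reported here, though it stays in the counts.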

Additional observations from a re-analysis of the deposited data

How the results depend on the processing

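The number of adhesion and matrix genes called higher in controls (13) was 5 with no filter on low values, 6 with the strict filter (mean of at least 50), 5 with only the 2 groups compared and 4 to 14 when 1 library was left out. The number called lower (1) was 0 with no filter, with only the 2 groups compared and with library weights, and 0 to 1 leaving out 1 library. For CHX against control the 0 called higher became 1 with a pseudocount of 5 and with only the 2 groups compared, and 0 to 1 leaving out 1 library, and the 0 called lower became 1 with a pseudocount of 5. For CHX against 5 hpf the 14 called higher became 9 with no filter, 7 with the strict filter and 1 to 19 leaving out 1 library. There the 0 called lower became 1 (cldn6.1.L) with a pseudocount of 5, scaling on library totals and the replicate block, and 2 with library weights. Protocadherins called higher were 4 with no filter, the strict filter or only the 2 groups compared (11 in controls, 3 to 10 leaving out 1 library). Under CHX against 5 hpf they were 6 with no filter, 5 with the strict filter and 1 to 13 leaving out 1 library (10). Against control they were 1 with a pseudocount of 5 or only the 2 groups compared, and 0 to 1 leaving out 1 library (0).

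The median over the members was 0.03 with the strict filter, -0.03 on library totals and 0.11 to 0.25 leaving out 1 library in controls (0.11). For CHX against control (0.09) it was 0.00, 0.14 and 0.01 to 0.13, and for CHX against 5 hpf (0.24) it was -0.10, 0.15 and 0.10 to 0.24. L and S pairs called in controls (1) were 3 with a pseudocount of 0.5, 2 on library totals, 0 with only the 2 groups compared or the replicate block and 0 to 1 leaving out 1 library. Under CHX against 5 hpf (2) they were 0 with only the 2 groups compared or the replicate block, 5 with library weights and 0 to 1 leaving out 1 library. The strict filter removes low genes by construction, and the fit of 2 groups has fewer samples. For the other changes the cause was not tested.

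The labels do not say that replicate numbers pair samples, and deviations of same-numbered samples correlated at 0.0080, -0.0198 and 0.130. With the replicate block, genes called higher were 14 in controls, 0 for CHX against control and 16 for CHX against 5 hpf. The calls of pcdh18.L, pcdh10.L and cldn4.S in controls and of pcdh18.L under CHX against 5 hpf held under all 16 alternatives (15 for pcdh10.L, which the strict filter removes). No call named here reversed its direction under any alternative run. Pairs were not tested under other filters.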

Other observations

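Regulators that switch cells between epithelial and mesenchymal states, kept apart from the adhesion genes themselves, formed a list of their own. Of 29 tested, 9 were higher and 2 lower at 7.5 hpf than at 5 hpf in controls (31% and 6.9%, against 5.9% and 0.715% of all genes), and 13 were higher in CHX embryos than at 5 hpf (44.8%, against 5.75% of all genes; 3 without CHX replicate 1 and 8 without CHX replicate 2). Of these 29 genes, 5 were at 0 in both 5 hpf libraries and passed the filter only through their later values. The median log2 fold change from 5 hpf over the list was 0.19 in controls and 0.91 under CHX. Over its 24 genes above 0 at 5 hpf it was 0.09 and 0.35, against 0.01 over all such genes in each comparison. snai1.S, of the snail family that represses E-cadherin, went from 15 and 2 to 2049 and 761 in controls and stood at 1246 and 746 under CHX (limma, adjusted p = 8.45e-05 in controls). snai1.L went from 153 and 81 to 1476 and 770 (3.25 ± 0.36, adjusted p = 0.000318). The epidermal regulator grhl3.L went from 0 and 0 to 671 and 244 and stood at 1449 and 1059 under CHX. The genes lower in controls were esrp1.S, an epithelial splicing factor, from 1038 and 1042 to 717 and 611, and grhl1.L, from 919 and 929 to 572 and 611. The esrp1.S call was lost on omitting any 1 of the 6 libraries, and the grhl1.L call on omitting any 1 but control 7.5 hpf replicate 2. klf5.L and klf5.S were the genes of this list called between CHX and control. klf5.L gave 378 and 367 against 891 and 804 (1.18 ± 0.17, adjusted p = 0.0164), and klf5.S gave 901 and 885 against 1555 and 1528 (0.79 ± 0.14, adjusted p = 0.0358). The klf5.L call was lost on omitting control 7.5 hpf replicate 1 (adjusted p = 0.0948), CHX replicate 1 or CHX replicate 2 (up to 0.704), and the klf5.S call on omitting any 1 of the 6 libraries (0.0641 to 0.782).

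Of the 90 rows with an adhesion or matrix name that were above 0 but below the level for inclusion, 10 reached 20 units in any library. The highest value was 32, in control 7.5 hpf replicate 1 of col6a1.S, a collagen VI chain. cdh20.S was at 0 in all 4 control libraries and at 21 and 16 under CHX, and pcdh8l.L, the partner of pcdh8l.S, gave 17 and 12 at 5 hpf, 8 and 19 in the 7.5 hpf controls and 6 and 6 under CHX.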
